A study of Caenorhabditis elegans with 23 samples.

Results

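The fat lipase genes lipl-1, lipl-2, lipl-3, lipl-4, lipl-5, lipl-7 and atgl-1 of the nematode Caenorhabditis elegans were followed through larval and adult worms. These worms had a normal or a reduced germline. The genes were chosen by name: every probe set that the platform annotation assigned to one of these symbols was read. This gave 9 probe sets of the 22548 on the array, for 7 of the 17118 genes named there. The 6 lipl genes had 1 probe set each and atgl-1 had 3, numbered 174095, 174170 and 187658. No lipase probe set named a second gene, but that of lipl-3 is of a type that can bind several transcripts (called shared below), so its values are uncertain.

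The study measured whole-worm total RNA on Affymetrix arrays, 1 array per sample. Wild-type (WT, strain N2) and glp-1(e2141ts) worms were fed either bacteria carrying an empty vector (EV) or bacteria producing double-stranded RNA against ash-2 (ash-2 RNAi), and were collected at larval stage 3 (L3) or on day 8. All worms were grown at 20 degrees. GLP-1 is a Notch receptor that keeps germline stem cells dividing, and per the design text the mutants develop only a small number of meiotic germ cells; the period at which the temperature-sensitive allele was inactivated is not given in the sources used here. ASH-2 is a subunit of the complex that places trimethyl marks on lysine 4 of histone H3. The 8 groups held 3 arrays each, except day 8 WT EV with 2, since the submitters left out the array numbered 3 for quality. The labels do not say that replicates came from separate cultures, so p-values measure the spread between these samples, which may be technical.

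Worms store fat as triglyceride in lipid droplets, mainly in the intestine, which also serves as their liver-like organ. Fat is released along 2 routes: neutral lipases act at the droplet surface in the cytosol, and acid lipases act inside lysosomes after fat has been delivered there. ATGL-1, the worm ortholog of mammalian adipose triglyceride lipase, works at the droplet. The LIPL proteins belong to the lysosomal acid lipase family. Among them lipl-4 is known as an intestinal gene whose expression is raised in adults without a germline and whose overexpression lengthens life, and lipl-1 and lipl-3 are known to be induced by fasting under the transcription factor HLH-30 and held down in fed worms by MXL-3. LIPL-5 is a lysosomal lipase, and less is known of lipl-2 and lipl-7.

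Levels are given on the log2 scale as deposited, so a difference of 1 is a doubling, and they are compared within a probe set, not between genes. Array medians lay between 5.72 and 5.91 at L3 and between 4.89 and 5.01 on day 8, so the ages look to have been normalised apart, and their levels are set side by side without a test. Of the 4 probe sets named for ash-2, the 3 shared ones were higher in every ash-2 RNAi array, for example 12.71 to 13.52 against 6.98 to 7.24 for probe set 171772 in L3 WT; whether they read the double-stranded RNA was not tested. The unshared probe set 175434 was lower under ash-2 RNAi, at 4.93 to 5.14 against 6.71 to 7.07 in day 8 WT and 4.90 to 4.94 against 5.12 to 5.58 in day 8 glp-1, and by less at L3 (6.20 to 6.28 against 6.53 to 6.61 in WT, 5.79 to 6.05 against 6.05 to 6.38 in glp-1, where the ranges met). RNA came from whole worms, so fewer cells of a type and less RNA per cell cannot be told apart.

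The first comparison asked how the lipase genes differ on day 8 under EV in glp-1 worms, whose germline is reduced. All 6 lipl genes rose in glp-1 worms and atgl-1 fell on all 3 of its probe sets. Over the whole array 54.9% of probe sets passed the test (28.3% higher and 26.6% lower in glp-1), so a call alone says little of the lipases in particular. The median log2 difference of the 9 probe sets was 1.13, against 0.04 over all probe sets.

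The lysosomal lipase lipl-4 read 4.0 and 3.99 in the 2 day 8 WT EV arrays and 6.63, 6.58 and 6.34 in the 3 glp-1 EV arrays. The WT values lay near the dim end of the scale, where the lowest probe sets of an array read 3.00 to 3.21. The difference was 2.52 ± 0.18 (SE; 95% interval 2.11 to 2.92; limma, adjusted p = 2.43e-07), or 5.73-fold. For lipl-1, a fasting-induced lipase, the WT arrays read 8.30 and 8.44 and the glp-1 arrays 10.62, 11.31 and 10.88. Its difference of 2.57 ± 0.19 (95% interval 2.15 to 2.98; adjusted p = 2.68e-07), or 5.93-fold, was the largest among the lipases, and its interval overlapped that of lipl-4.

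The other lipl genes differed by less. For lipl-2, the WT arrays read 5.89 and 5.84 and the glp-1 arrays 7.51, 7.79 and 7.77, a difference of 1.82 ± 0.26 (adjusted p = 6.97e-05). For lipl-7, WT arrays at 7.24 and 7.77 faced glp-1 arrays at 9.23, 8.74 and 9.06, a difference of 1.51 ± 0.18 (adjusted p = 2.09e-05). The lysosomal lipase lipl-5, a bright probe set in every group, read 10.15 and 9.97 in WT and 10.82, 11.27 and 11.48 in glp-1. Its difference was 1.13 ± 0.17 (adjusted p = 1.04e-04). The smallest rise was that of lipl-3, at 0.57 ± 0.20 (adjusted p = 0.0274), with WT arrays at 4.50 and 4.88 and glp-1 arrays at 5.07, 5.33 and 5.38. This call was lost without day 8 WT EV 1 (0.38), glp-1 EV 2 (0.53) or glp-1 EV 3 (0.51), and with each array centred on its median (0.49, adjusted p = 0.0511).

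The droplet lipase atgl-1 went the other way. On probe set 174095 the WT arrays read 8.63 and 8.02 and the glp-1 arrays 6.45, 6.57 and 6.73. On 174170 they read 8.14 and 7.77 in WT and 5.96, 6.53 and 6.25 in glp-1. Every glp-1 array was thus lower by more than 1 unit than every WT array on both. The differences were −1.74 ± 0.22 (adjusted p = 3.19e-05) and −1.71 ± 0.17 (adjusted p = 3.60e-06). The dimmer probe set 187658 read 6.90 and 6.10 in WT and 5.54, 5.41 and 5.22 in glp-1, a difference of −1.11 ± 0.30 (adjusted p = 0.00739) that did not pass without day 8 WT EV 1 (−0.70).

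**Figure D1:**
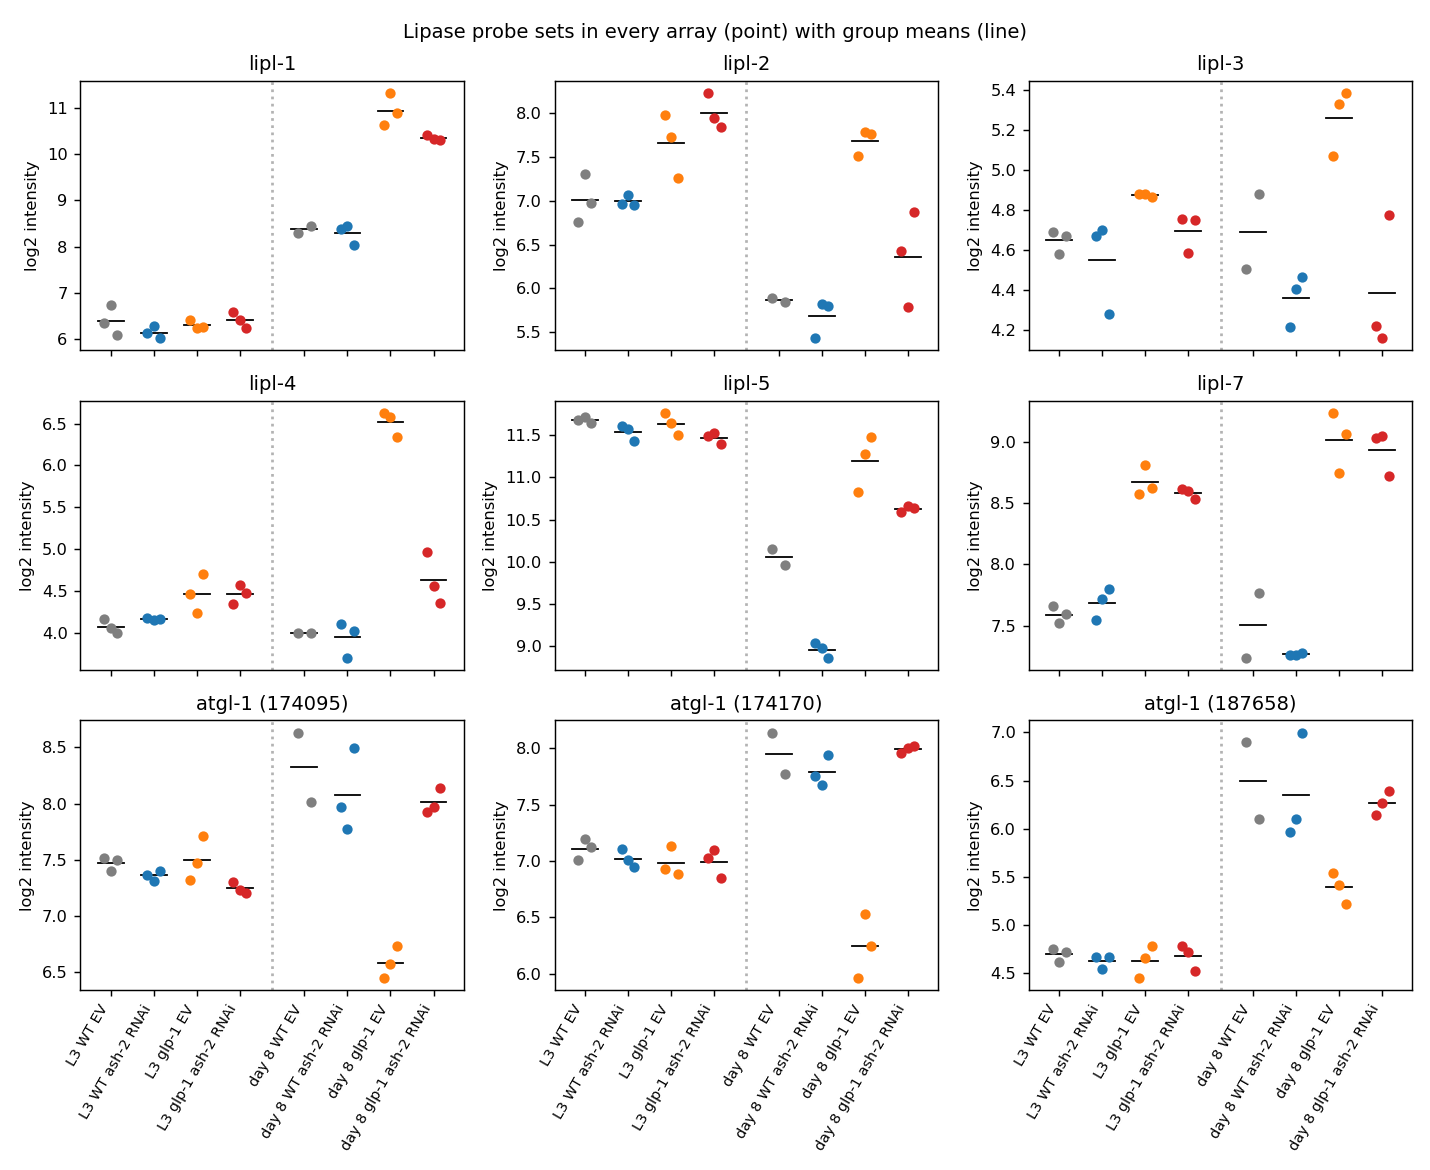
Deposited log2 intensity (vertical axis) of each lipase probe set in the 8 groups (horizontal axis), with a point per array and a line at the group mean; the dotted line parts L3 from day 8, whose levels may not share a scale. On day 8 the lipl probe sets are highest in glp-1 EV, while the 3 atgl-1 probe sets are lowest there.

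The tissue make-up of the RNA moved with the genotype. On day 8 all 14 of 14 germline markers fell in glp-1 worms (median −5.55), and their summed level was 8.89 to 8.93 in glp-1 EV against 14.94 to 15.42 in WT EV. All 12 intestine markers rose (median 2.10), with a summed level of 15.55 to 15.70 against 14.37 to 14.43. The 8 muscle markers all rose as well (median 2.18), 4 of 8 neuron markers rose and none fell (median 1.60), and of 8 epidermis markers 4 rose and 1 fell. The median intestine marker therefore rose by an amount between those of lipl-2 and lipl-4, and the part of this shift in the lipase differences was not separately tested.

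An alternative scale chosen after seeing the data expressed each array relative to the mean of its 12 intestine markers. On that scale the median difference of all probe sets was −2.16 and 91.6% of them passed, 19425 of these lower, and no lipase was higher in day 8 glp-1 worms by the test. The difference was 0.37 for lipl-1 (adjusted p = 0.116), 0.32 for lipl-4 (adjusted p = 0.196) and −0.38 for lipl-2 (adjusted p = 0.136). Those of lipl-3 (−1.63), lipl-5 (−1.07) and lipl-7 (−0.69, adjusted p = 0.0206) turned to falls that passed the test. The atgl-1 probe sets were lower still, at −3.94, −3.91 and −3.31. On this scale lipl-1 and lipl-4 thus kept their direction and lost the call, the other 4 lipl genes changed sign, and atgl-1 kept both.

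**Figure D2:**
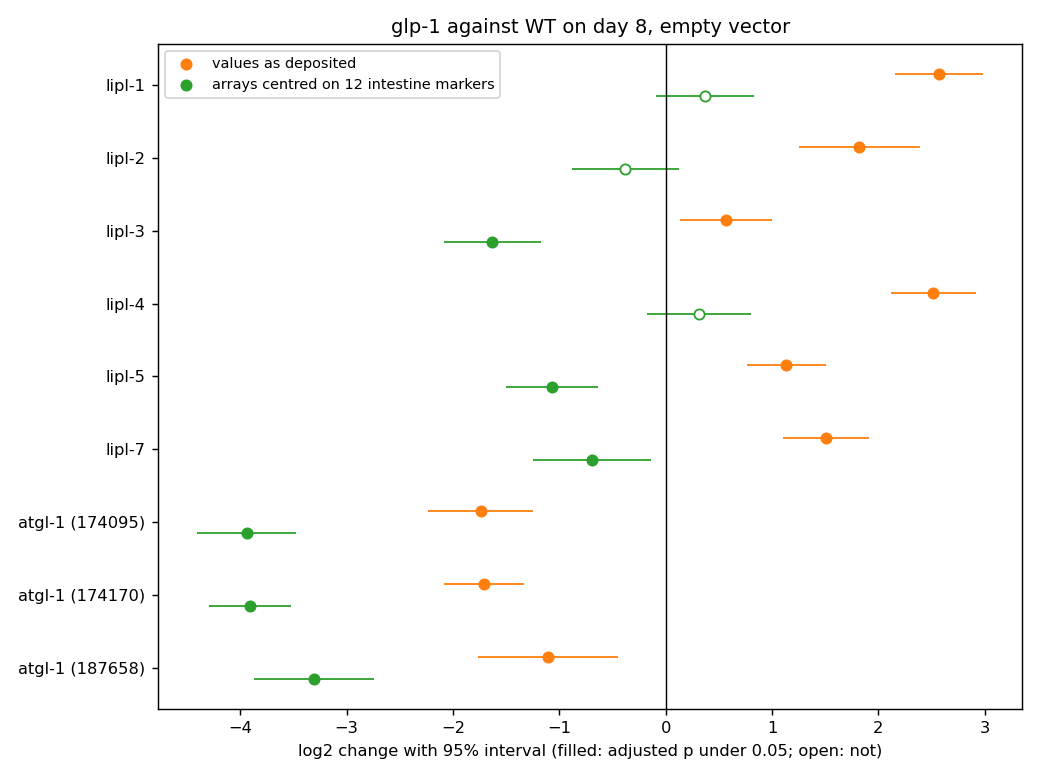
Log2 difference between glp-1 and WT on day 8 under EV (horizontal axis) for each lipase probe set (vertical axis), with 95% intervals, from the values as deposited and after centring each array on 12 intestine markers; filled points passed an adjusted p of 0.05. The lipl probe sets lie to the right of 0 as deposited and between −1.63 and 0.37 after centring, and the atgl-1 probe sets lie to the left of 0 on both scales.

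At L3, before the worms are adult, fewer lipases differed between the genotypes. The rise of lipl-7 was the clearest: WT EV arrays read 7.66, 7.52 and 7.60 and glp-1 EV arrays 8.58, 8.81 and 8.62, a difference of 1.08 ± 0.09 (adjusted p = 4.05e-07), or 2.11-fold, with no overlap. Smaller rises were found for lipl-2 (0.64 ± 0.17, adjusted p = 0.00544), whose groups overlapped, and for lipl-4 (0.39 ± 0.11, adjusted p = 0.00658), which went from 4.16, 4.05 and 4.0 to 4.46, 4.24 and 4.70. No lipase fell on the deposited scale. These 3 of 9 probe sets stand against 55.5% of all probe sets that passed here (33.4% higher and 22.1% lower).

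The remaining L3 differences lay between −0.12 and 0.23, with the 3 atgl-1 probe sets at −0.12 to 0.03 and lipl-1 at −0.09 ± 0.15. The lipl-3 difference of 0.23 ± 0.10 missed the threshold (adjusted p = 0.0818), but this depended on the setting. It passed with median centring (0.33, adjusted p = 0.0159), in the fit of only the arrays compared (adjusted p = 0.0473) and without L3 WT ash-2 RNAi 3 (adjusted p = 0.0216). Germline markers already read 14 of 14 lower (median −3.43) and 9 of 12 intestine markers higher (median 0.44). All 8 muscle markers (median 0.35) and 6 of 8 neuron markers (median 0.63) were higher too. After centring on the intestine markers, where the median of all probe sets was −0.38, lipl-7 was still higher (0.59), and lipl-2 (0.15), lipl-4 (−0.10) and lipl-3 (−0.26) did not pass. On that scale 5 probe sets fell: lipl-1 (−0.58), lipl-5 (−0.54) and the 3 of atgl-1 (−0.46, −0.61 and −0.56). Of all 22548 probe sets 70.1% passed there, 14030 of them lower and 1781 higher, so falls were common over the array.

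Whether the genotype difference changed with age was tested directly, as the day 8 difference minus the L3 difference, over all 23 arrays. It was larger on day 8 for lipl-1 by 2.65 ± 0.25 (adjusted p = 1.55e-08), for lipl-4 by 2.12 ± 0.21 (adjusted p = 3.95e-08), for lipl-2 by 1.18 ± 0.32 (adjusted p = 0.00379) and for lipl-5 by 1.18 ± 0.18 (adjusted p = 1.24e-05). All 3 atgl-1 probe sets shifted down, by −1.77 ± 0.24, −1.58 ± 0.19 and −1.04 ± 0.31 (adjusted p = 2.18e-06, 4.86e-07 and 0.00744). The call of lipl-2 was lost with quantile scaling (0.76, adjusted p = 0.0715), and that of atgl-1 187658 without day 8 WT EV 1 (−0.64). The shifts of lipl-7 (0.43 ± 0.20, adjusted p = 0.0758) and lipl-3 (0.34 ± 0.22, adjusted p = 0.210) did not pass. The 7 of 9 compare with 52.7% of all probe sets (24.5% up and 28.2% down). The intestine marker median moved with age too, from 0.44 to 2.10. After centring on these markers the median shift of all probe sets was −1.78, and 88.3% of them passed, 18818 of these down. There the shift of lipl-1 still passed (0.94, adjusted p = 0.00244). Those of lipl-4 (0.41, adjusted p = 0.133) and lipl-2 (−0.53, adjusted p = 0.0945) lost their calls. That of lipl-5 turned to a fall (−0.53, adjusted p = 0.0267), as did those of lipl-3 (−1.37) and lipl-7 (−1.28), all smaller falls than the array median.

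The study's main treatment, ash-2 RNAi, was then compared with EV inside each genotype and age. At L3 no lipase probe set passed in either genotype. In L3 WT the changes lay between −0.25 and 0.10 (smallest adjusted p = 0.855, and 0 of 9 at an unadjusted p under 0.05), and 0.328% of all probe sets passed (0.217% higher and 0.111% lower). In L3 glp-1 they lay between −0.25 and 0.35 (smallest adjusted p = 0.279, and 1 of 9 at an unadjusted p under 0.05), and 0.798% of all passed (0.501% higher and 0.297% lower). The widest of them were those of lipl-2 in glp-1 (0.35 ± 0.17, 95% interval −0.02 to 0.72) and atgl-1 174095 in glp-1 (−0.25 ± 0.10, 95% interval −0.46 to −0.05). Every 95% interval at L3 lay between −0.56 and 0.72. The fall of the ceramidase gene asah-2, a lysosomal enzyme of the lysosome and autophagy list, was the only call at L3 in any of the 3 fat and lysosome lists (−0.52 ± 0.10 in WT, adjusted p = 0.0470, and −0.55 ± 0.10 in glp-1, adjusted p = 0.0262).

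On day 8 in WT, ash-2 RNAi changed 1 lipase. lipl-5 read 10.15 and 9.97 in the EV arrays and 9.03, 8.98 and 8.86 in the ash-2 RNAi arrays, so the groups lay about 1 unit apart. The fall was −1.10 ± 0.17 (95% interval −1.47 to −0.73; adjusted p = 0.00872), or 2.15-fold, and it passed without any 1 of the 11 day 8 arrays (−1.19 to −1.01). Of all probe sets 1.47% passed (0.577% higher and 0.891% lower). The other 8 lipase changes lay between −0.33 and −0.05 with adjusted p of 0.899 or more. Intestine markers summed to 14.01 to 14.12 under ash-2 RNAi against 14.37 to 14.43 under EV, with 1 of 12 called lower (cpr-1, a cathepsin B-like protease, −1.53 ± 0.14) and a median of −0.14. Of 8 muscle markers 2 rose (mup-2 by 0.85 ± 0.13, shared, and unc-27 by 0.74 ± 0.16; median 0.45), with a summed level of 12.01 to 12.28 against 11.54 to 11.72. Relative to the mean of the intestine markers, not their median, the lipl-5 change was −0.79 and missed the threshold (adjusted p = 0.0763). On that scale the median change of all probe sets was 0.32, and 1.52% passed (287 higher and 56 lower). The age difference of the lipl-5 change in WT, day 8 minus L3, was −0.96 ± 0.18 (adjusted p = 0.00706), where 1.55% of all probe sets passed (0.537% up and 1.01% down) and no other lipase did. Relative to the intestine markers it was −0.60 and did not pass (adjusted p = 0.125), where the median of all probe sets was 0.35.

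On day 8 in glp-1, ash-2 RNAi changed nearly the whole set: 5 lipl genes fell and all 3 atgl-1 probe sets rose, 8 of 9. Over all probe sets 14.8% passed (7.18% higher and 7.63% lower). The median change of the 9 was −0.56, against 0.03 over all probe sets. These changes are measured from the same 3 glp-1 EV arrays as the genotype difference above, so a high or low reading in those arrays moves both comparisons in opposite directions.

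The largest fall was that of lipl-4, from 6.63, 6.58 and 6.34 under EV to 4.96, 4.56 and 4.36 under ash-2 RNAi. The change was −1.89 ± 0.16 (95% interval −2.25 to −1.53; adjusted p = 3.93e-05), a 3.70-fold reduction. All 3 treated arrays still lay above the 5 WT arrays of day 8, which read 3.70 to 4.11. lipl-2 fell from 7.51, 7.79 and 7.77 to 6.43, 5.79 and 6.88, by −1.32 ± 0.23 (95% interval −1.83 to −0.82; adjusted p = 0.00313). Its treated arrays were the most scattered of the 9 probe sets in that group (SD 0.548), and their lowest value lay within the WT range of 5.43 to 5.89. lipl-3 fell from 5.07, 5.33 and 5.38 to 4.22, 4.16 and 4.77, by −0.88 ± 0.17 (adjusted p = 0.00692), and its treated arrays overlapped those of both WT groups.

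The falls of lipl-1 and lipl-5 were smaller. lipl-1 went from 10.62, 11.31 and 10.88 to 10.40, 10.33 and 10.31, a change of −0.59 ± 0.17 (95% interval −0.96 to −0.22; adjusted p = 0.0386). All its treated arrays stayed more than 1 unit above every WT array of day 8 (8.04 to 8.44). lipl-5 went from 10.82, 11.27 and 11.48 to 10.59, 10.66 and 10.64, a change of −0.56 ± 0.15 (95% interval −0.89 to −0.23; adjusted p = 0.0290). These calls rested on few arrays. That of lipl-1 was lost in 7 of 11 fits that left out 1 array: glp-1 EV 2 or 3, any glp-1 ash-2 RNAi array, or WT ash-2 RNAi 1 or 2, with changes of −0.62 to −0.40. That of lipl-5 was lost in 5, without glp-1 EV 2 or 3 or any glp-1 ash-2 RNAi array (−0.57 to −0.42). The exception in the family was lipl-7, at 9.23, 8.74 and 9.06 under EV and 9.03, 9.05 and 8.72 under ash-2 RNAi, a change of −0.08 ± 0.16 (95% interval −0.45 to 0.28; adjusted p = 0.807).

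The droplet lipase atgl-1 rose. On probe set 174170 the arrays went from 5.96, 6.53 and 6.25 to 7.96, 8.00 and 8.02, a change of 1.75 ± 0.15 (95% interval 1.41 to 2.08; adjusted p = 3.93e-05), or 3.36-fold. On 174095 they went from 6.45, 6.57 and 6.73 to 7.93, 7.97 and 8.14, a change of 1.43 ± 0.20 (adjusted p = 8.42e-04), or 2.69-fold. Treated glp-1 arrays lay among the WT arrays of day 8 on all 3 probe sets. The rise on 187658, from 5.54, 5.41 and 5.22 to 6.14, 6.26 and 6.39, was 0.87 ± 0.27 (adjusted p = 0.0499), and its call was lost without any 1 of the 6 glp-1 arrays or without WT ash-2 RNAi 2 (0.79 to 0.95). Averaged over the 3 probe sets, atgl-1 rose by 1.35 ± 0.19 (adjusted p = 7.37e-04). The calls of lipl-2, lipl-3, lipl-4 and the first pair of atgl-1 probe sets passed without any 1 array.

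**Figure D3:**
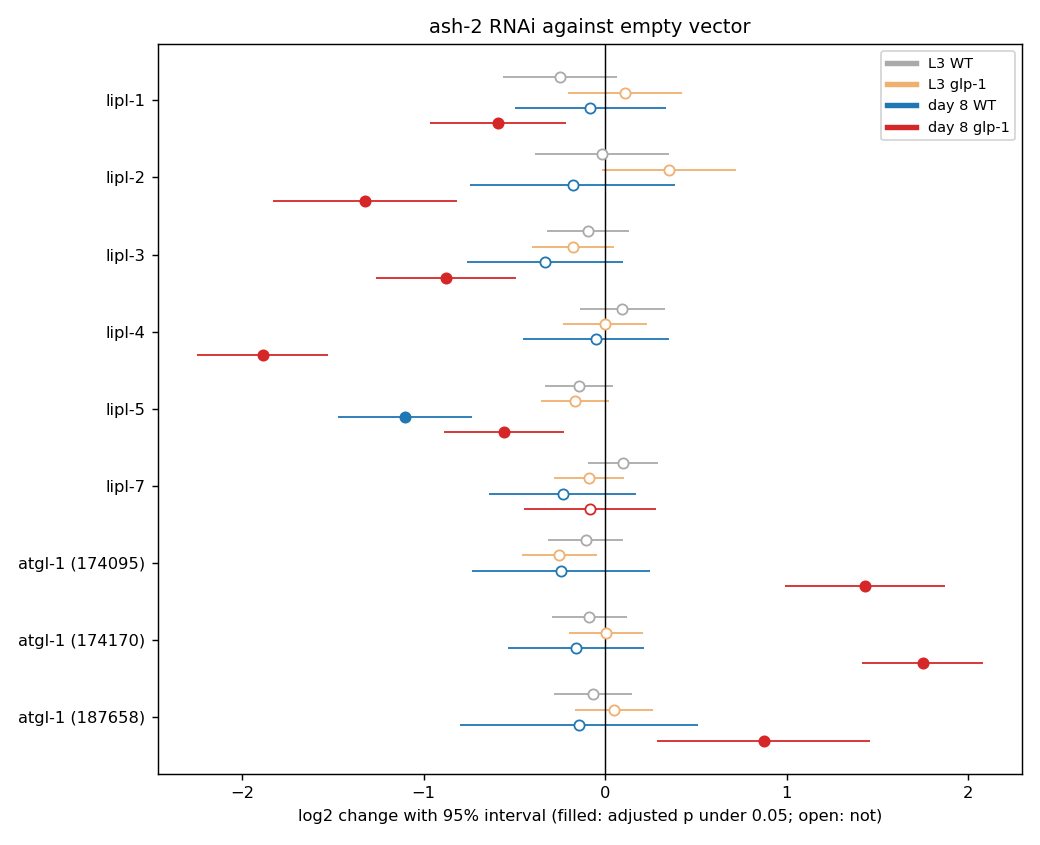
Log2 change under ash-2 RNAi against EV (horizontal axis) of each lipase probe set (vertical axis) in L3 WT, L3 glp-1, day 8 WT and day 8 glp-1, with 95% intervals; filled points passed an adjusted p of 0.05. In day 8 glp-1 5 lipl probe sets fell and 3 atgl-1 probe sets rose, in day 8 WT lipl-5 alone passed, and at L3 all intervals lay between −0.56 and 0.72.

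Whether the response to ash-2 RNAi on day 8 differed between the genotypes was tested as the change in WT minus the change in glp-1. It did for lipl-4 (1.83 ± 0.25, adjusted p = 0.00275) and for atgl-1 on probe sets 174095 (−1.67 ± 0.30, adjusted p = 0.0126) and 174170 (−1.91 ± 0.23, adjusted p = 0.00144), and these 3 calls passed without any 1 array. Of all probe sets 4% passed (2.33% with the WT change above the glp-1 change and 1.67% below). In WT these probe sets had changed by −0.05, −0.24 and −0.16, with 95% intervals from −0.74 to 0.35 over the 3. For lipl-2 the difference of 1.14 ± 0.34 missed the threshold (adjusted p = 0.0984), and those of lipl-1 (0.51, adjusted p = 0.340), lipl-3 (0.55, adjusted p = 0.318), lipl-7 (−0.15, adjusted p = 0.827) and atgl-1 187658 (−1.02, adjusted p = 0.205) did too. The falls of lipl-5 in the 2 genotypes were not shown to differ (−0.54 ± 0.22, adjusted p = 0.235). At L3 no lipase differed by this test (0 of 9 also at an unadjusted p under 0.05), nor did any of the 22548 probe sets by limma at the adjusted threshold, with 1859 at an unadjusted p under 0.05.

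Within glp-1 worms the response also differed between day 8 and L3. The day 8 change minus the L3 change was −1.88 ± 0.20 for lipl-4 (adjusted p = 2.94e-06), −1.67 ± 0.30 for lipl-2 (adjusted p = 0.00101), and 1.68 ± 0.22 and 1.74 ± 0.18 for atgl-1 174095 and 174170 (adjusted p = 4.32e-05 and 2.20e-06). That of lipl-3, −0.70 ± 0.21 (adjusted p = 0.0371), was lost in 9 of 23 fits without 1 array (the 3 of L3 glp-1 EV, L3 glp-1 ash-2 RNAi 1 and 3, day 8 glp-1 EV 2 and 3, and day 8 glp-1 ash-2 RNAi 1 and 2), at −0.70 to −0.58. It was also lost with median centring (−0.63, adjusted p = 0.0568), in the fit of only the arrays compared (adjusted p = 0.0884) and after centring on the intestine markers (−0.16, adjusted p = 0.545). The remaining 4 did not pass, among them lipl-1 (−0.70, adjusted p = 0.0635) and lipl-7 (0.01, adjusted p = 0.991). Of all probe sets 9.73% passed (4.18% up and 5.55% down).

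Intestine markers moved with the ash-2 RNAi response in day 8 glp-1 worms. Of 12, 7 fell and none rose (median −0.50), led by ifb-2 (−1.16 ± 0.13, shared) and ifc-2 (−1.32 ± 0.17), intermediate filament proteins of the gut, and ges-1 (−1.02 ± 0.14, shared), a gut esterase. Their summed level, dominated by the brightest, was 15.36 to 15.51 against 15.55 to 15.70 under EV, and none of the 12 had a group mean under 4. Relative to the intestine markers, a scale on which the median change of all probe sets was 0.65 and 79.2% of them passed, 17313 of these higher, lipl-4 was still lower (−1.27, adjusted p = 3.26e-04) and so was lipl-2 (−0.71, adjusted p = 0.00780). The 3 atgl-1 probe sets were still higher (2.05, 2.37 and 1.49). lipl-1 (0.03), lipl-5 (0.06) and lipl-3 (−0.26) no longer differed by the test, and lipl-7 was higher (0.53, adjusted p = 0.0468). The genotype difference of the response held on that scale for lipl-4 (1.53, adjusted p = 0.0146) and for atgl-1 174095 and 174170 (−1.98 and −2.21). That of atgl-1 187658, not called as deposited, passed there (−1.32, adjusted p = 0.0498).

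Germline markers in day 8 glp-1 worms summed to 9.18 to 9.69 under ash-2 RNAi against 8.89 to 8.93 under EV, with 4 of 14 higher and 1 lower. Among them gld-1, a translational repressor of the germline, rose by 1.10 ± 0.16 and glh-1, a P granule helicase, by 0.88 ± 0.14 (shared), while nos-2 fell by 0.91 ± 0.14 (shared). The gld-1 means were dim, at 4.02 under EV and 5.12 under ash-2 RNAi. One of 8 muscle markers and 1 of 8 neuron markers fell, and of the epidermis markers lin-26 rose (0.98 ± 0.18) and the adult collagen gene col-19 fell (−1.38 ± 0.25). The part of these shifts in the lipase changes was not tested. The intestine-centred values do not measure it, since centring takes the same amount off every probe set of an array.

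Other genes of fat breakdown were read from lists of droplet proteins and further lipases (13 of 14 measured), regulators and signals (15 of 16) and lysosome and autophagy genes (20 of 23). In day 8 glp-1 worms under ash-2 RNAi, 7.18% of all probe sets rose and 7.63% fell. There 3 of the 13 droplet and lipase genes rose and none fell (median 0.00). They were fil-2 (1.38 ± 0.13, adjusted p = 8.72e-05) and fil-1 (0.78 ± 0.16, adjusted p = 0.00856), both fasting-induced lipases, and lid-1 (0.79 ± 0.14, adjusted p = 0.00347), which encodes a partner protein that binds and activates ATGL-1. Both fil probe sets were dim, with means under EV of 3.88 for fil-2 and 4.48 for fil-1, and of 5.26 for each under ash-2 RNAi. The response of fil-2 differed between the genotypes (WT minus glp-1, −1.30 ± 0.20, adjusted p = 0.00621). For lid-1 that difference missed the threshold (−0.67 ± 0.21, adjusted p = 0.110).

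Among the regulators, 1 of 15 rose and 3 fell there (median −0.17), against 7.18% and 7.63% of all probe sets. lbp-8, a lipid chaperone known to carry a signal from lysosomes with active LIPL-4 to the nucleus, rose by 2.09 ± 0.37 (adjusted p = 0.00343, shared), the opposite direction to lipl-4. kri-1, an intestinal protein needed for the long life of germline-less worms, fell by 1.18 ± 0.23 (adjusted p = 0.00613), and the nuclear receptor gene nhr-80 fell by 0.59 ± 0.13 (adjusted p = 0.0138, shared). The response of nhr-80 differed between the genotypes (0.91 ± 0.20, adjusted p = 0.0333). Of the lysosome and autophagy genes 3 of 20 fell and none rose (median −0.19), a share near the 14.8% of all probe sets that passed. The falls were those of asah-2 (−1.72 ± 0.12), the cathepsin L gene cpl-1 (−0.49 ± 0.11, shared) and the palmitoyl thioesterase gene ppt-1 (−0.95 ± 0.24). In day 8 WT, the only call in these 3 lists was the fall of asah-2 (−1.25 ± 0.13, adjusted p = 9.56e-04).

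**Figure D4:**
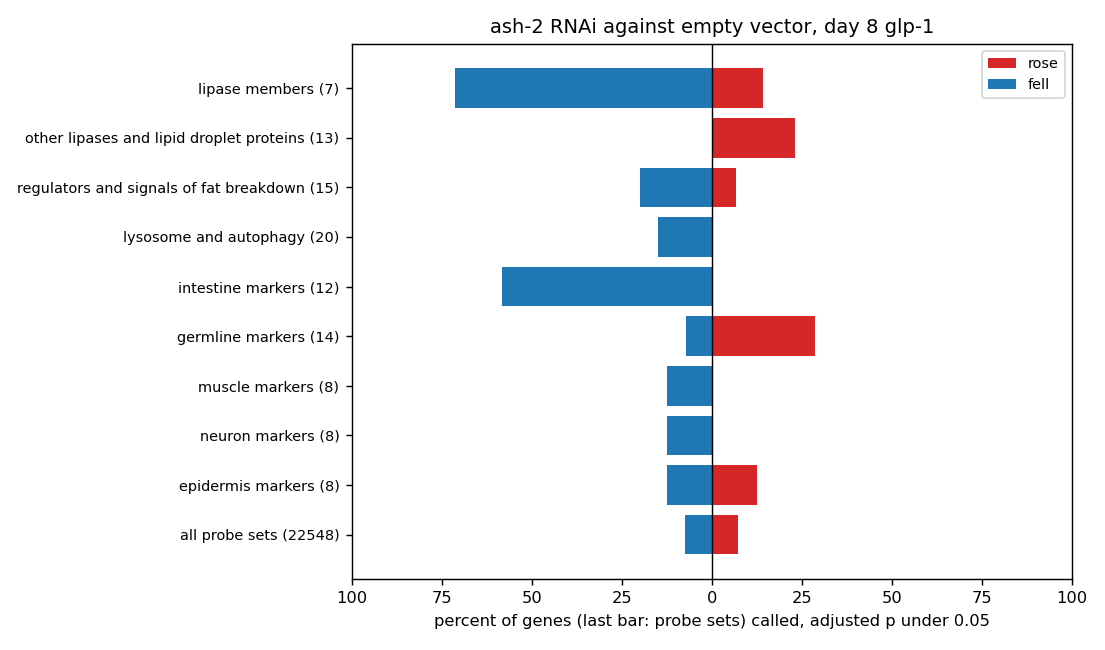
Percent of the measured genes of each list (number in brackets; last bar, of all probe sets) that rose (right) or fell (left) under ash-2 RNAi in day 8 glp-1, with 1 probe set per gene. Of the lipase genes 5 of 7 and 7 of 12 intestine markers fell, against 7.63% of all probe sets.

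The same lists were read for the genotype difference on day 8, where 28.3% of all probe sets were higher and 26.6% lower in glp-1. Of the droplet and lipase genes 5 of 13 rose and 2 fell (median 0.28). The rises included dhs-3, a droplet-bound dehydrogenase (3.17 ± 0.14, shared), dgat-2, an enzyme of triglyceride synthesis (3.45 ± 0.20), and acs-22, an acyl-CoA synthetase (4.35 ± 0.42, shared). The falls were those of lid-1 (−1.19 ± 0.16, adjusted p = 3.96e-05) and of hosl-1, the hormone-sensitive lipase homolog (−0.86 ± 0.19, adjusted p = 0.00180), named here for their roles beside atgl-1 and after their values were seen.

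Of the regulators 11 of 15 rose and 1 fell (median 1.21), against 28.3% higher and 26.6% lower over all probe sets. The rises were led by the nuclear receptor genes daf-12 (3.14 ± 0.13) and nhr-80 (3.64 ± 0.15, shared) and by kin-2 (2.77 ± 0.13, shared), a regulatory subunit of protein kinase A. Named outside the rule and after their values were seen, hlh-30 rose by 2.20 ± 0.16 (adjusted p = 2.42e-07, shared), mxl-3 by 3.14 ± 0.21 (adjusted p = 1.43e-07) and the lipid chaperone gene lbp-8 by 1.63 ± 0.41 (adjusted p = 0.00508, shared). The activator hlh-30 and the repressor mxl-3 thus both rose, and under ash-2 RNAi in day 8 glp-1 neither passed (−0.05 ± 0.14 and −0.35 ± 0.19). Of the lysosome and autophagy genes 14 of 20 rose and 3 fell (median 0.80), led by asah-2 (2.76 ± 0.13), lmp-2, a lysosomal membrane protein gene (3.23 ± 0.17), and cpl-1 (1.80 ± 0.12, shared). At L3 the 3 lists had 8 and 1, 8 and 1, and 9 and 3 genes higher and lower in glp-1. Over all probe sets 33.4% were higher and 22.1% lower there.

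To complete the family, lipl-6 and lipl-8 were read as well. lipl-6 was higher in glp-1 at L3 (0.73 ± 0.17, adjusted p = 0.00226) and not on day 8 (−0.05 ± 0.10), an age difference of −0.78 ± 0.22 (adjusted p = 0.00462), the opposite direction to the 4 lipl genes that passed this test. It did not respond to ash-2 RNAi by the test in any group, and lipl-8 passed in no comparison.

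Levels across the 8 groups can be placed in order within each age. On day 8 the order of lipl-4 was WT ash-2 RNAi (3.95 ± 0.22, SD, n = 3), WT EV (4.0 ± 0.01, n = 2), glp-1 ash-2 RNAi (4.63 ± 0.30, n = 3) and glp-1 EV (6.52 ± 0.16, n = 3), and only the first pair overlapped. lipl-1 had the same order at 8.29 ± 0.22, 8.37 ± 0.10, 10.35 ± 0.05 and 10.94 ± 0.35, again with overlap in the first pair alone. lipl-5 had this order too, at 8.95 ± 0.09, 10.06 ± 0.13, 10.63 ± 0.04 and 11.19 ± 0.33, with no neighbours overlapping. For atgl-1 174170 glp-1 EV came lowest (6.25 ± 0.28), apart from WT ash-2 RNAi (7.79 ± 0.14), WT EV (7.95 ± 0.26) and glp-1 ash-2 RNAi (7.99 ± 0.03), which overlapped. At L3 lipl-5 lay between 11.39 and 11.77 on all 12 arrays and lipl-1 between 6.02 and 6.74, and the groups next to each other in order overlapped for both.

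How the lipases varied together was described over the 23 arrays after subtracting each age's mean, with no test, since arrays of a group share their condition and the genotype and RNAi steps dominate. The lipl probe sets correlated with each other at r of 0.43 to 0.89, and the 3 atgl-1 probe sets with each other at 0.82 to 0.93. Every lipl probe set correlated negatively with every atgl-1 probe set, from −0.47 (lipl-7 and 174170) to −0.90 (lipl-4 and 174170). The lipl-4 and atgl-1 pair had the strongest opposition and lipl-7 the weakest.

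**Figure D5:**
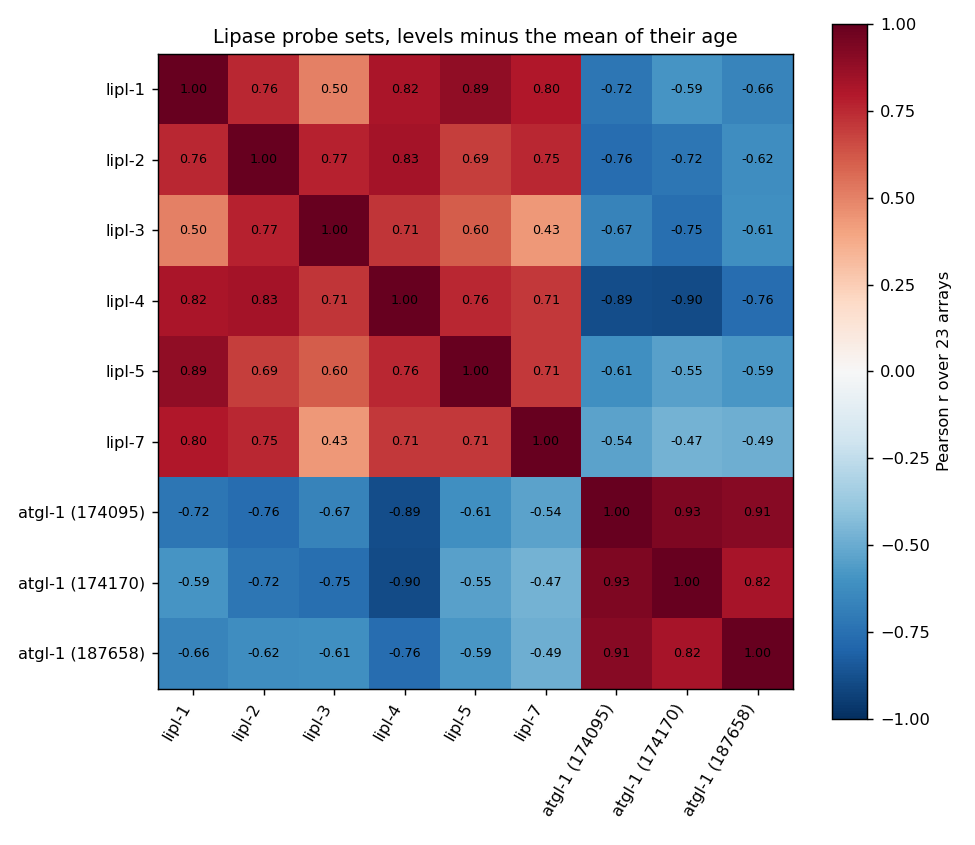
Pearson r over 23 arrays between the lipase probe sets (both axes), after subtracting the mean of each age; red is positive and blue negative. The lipl block is positive throughout (0.43 to 0.89), and all its values against the atgl-1 probe sets are negative (−0.90 to −0.47).

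By the same measure, among unshared probe sets of genes other than the 7 lipases, those most like lipl-4 were those of Y60A3A.16 (r = 0.969), F42C5.4 (r = 0.965) and Y46G5A.20 (r = 0.963). Patterns like those of lipl-1 and lipl-7 were common: 1088 and 954 probe sets exceeded r of 0.9, led by clec-150 (r = 0.977) and K07C11.8 (r = 0.979), against 229 for lipl-4, 56 for lipl-5 (led by T18H9.11, r = 0.971), 23 for lipl-2 (led by F11E6.6, r = 0.929) and none for lipl-3. Of these other genes H04M03.3 was nearest to probe sets 174095 (r = 0.916) and 174170 (r = 0.935) and F36A2.9 to 187658 (r = 0.919), each the single one of them above 0.9.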

How the data were processed

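Whole-worm RNA of 23 samples was hybridised to 1 array each, and the authors deposited log2 values per probe set that the submitters' processing notes credit to RMA (the version is not given in the sources used). Such values carry no detection calls, and precision is limited by how many arrays a group has. The table of 22548 probe sets was used unfiltered (6 empty cells in 5 probe sets, none in the lipases). Symbols came from the platform annotation (20766 probe sets name 1 gene, 887 several and 895 none) and 20701 became current symbols; 6711 probe sets are shared types (_s_at, _x_at).

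Group means were estimated in limma 3.58.1 (R 4.3.3) and contrasts tested two-sided. L3 (12 arrays) and day 8 (11 arrays) had fits of their own, and contrasts between ages used all 23. Benjamini-Hochberg adjustment covered the whole array, and rose or fell means an adjusted p under 0.05. Errors given as ± are standard errors from limma, or SDs where stated. The fit was tested on simulated data. A list gene is read from its brightest probe set, and summed levels are log2 of summed linear intensities.

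The lipases are named in every comparison, and from each other list up to 3 members with the smallest adjusted p among those called; likeness is Pearson r over the 23 arrays after subtracting age means, with the 3 highest unshared probe sets kept and fewer printed. The members and lists were chosen with earlier results of these data known. Deviations from the group means correlated above 0.1 in 9 of 18 same-numbered pairs at L3 (2 of 36 with other numbers) and in 3 of 15 on day 8 (9 of 30). Only between the treated and EV arrays of L3 WT did all 3 pairs exceed it (0.142 to 0.487), and 2 other-numbered pairs there did too (0.241 and 0.213). The numbers thus do not settle which arrays are paired. The main results, those of L3 WT included, come from fits without pairing. Alternatives tried were median and quantile scaling, a filter on dim probe sets, fits of only the arrays compared, a trended robust fit, averaging the probe sets per gene, a replicate block, each array left out and centring on intestine markers. No sequence or coordinate is given, as no genome of this series was used here.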

Additional observations from a re-analysis of the deposited data

Results flagged for a closer look

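Flagged were 16 results where the effect of the same contrast differed between genotypes or ages by an interaction test across all probe sets. With 2 or 3 arrays a group, no test for a single outlying array applies. Of all probe sets 52.7% passed for genotype by age under EV, so a call there is common. The share was 4% for RNAi by genotype on day 8, and 1.55% in WT and 9.73% in glp-1 for RNAi by age. Between genotypes (WT minus glp-1), the day 8 response to ash-2 RNAi differed for lipl-4 (1.83) and atgl-1 174095 (−1.67) and 174170 (−1.91). Under EV, the genotype difference on day 8 minus that at L3 differed for lipl-1 (2.65), lipl-4 (2.12), lipl-2 (1.18), lipl-5 (1.18) and the 3 atgl-1 probe sets (−1.77, −1.58 and −1.04). The ash-2 RNAi change on day 8 minus that at L3 differed in WT for lipl-5 (−0.96), and in glp-1 for atgl-1 174095 (1.68) and 174170 (1.74), lipl-2 (−1.67), lipl-4 (−1.88) and lipl-3 (−0.70). All of these results but that of lipl-5 in WT use the day 8 glp-1 EV arrays, so they are not independent. The part of the intestine marker shift in them was not tested. Centring takes the same amount off every probe set of an array, so it changes the scale and does not measure that part. Under centring the genotype by age calls of lipl-4 and lipl-2 were lost and that of lipl-5 turned to a fall. The median genotype by age shift of all probe sets was −1.78 there, and 88.3% passed, 18818 of them down. The RNAi by age calls of lipl-5 in WT and lipl-3 in glp-1 were lost too.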

How the results depend on the processing

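Of 620 values under the scaling, filter, fit and block settings 597 kept their direction and side of the threshold and none called turned sign; leaving out each array kept 1362 of 1449. Centring on the intestine markers, chosen after seeing the data, kept 52 of 99 and reversed 13. In day 8 glp-1 under ash-2 RNAi it gave lipl-1 0.0267, lipl-5 0.0571 and lipl-7 0.53. For the genotype difference it gave lipl-4 −0.10 and atgl-1 174095 −0.46 at L3, lipl-2 −0.38, lipl-3 −1.63, lipl-5 −1.07 and lipl-7 −0.69 on day 8, and −0.53, −1.37, −0.53 and −1.28 for the age difference of these 4. The medians of all probe sets were −0.38 at L3, −2.16 on day 8 and −1.78 for the age difference. Lipase calls under it numbered 0 for the day 8 WT response to ash-2 RNAi and for its age difference (1 each as deposited) and 6 for genotype at L3, 5 of them falls (3, all rises). Over all probe sets 70.1% passed for genotype at L3 on that scale, 14030 of them lower. Without the dimmest 40 percent of probe sets the age difference in glp-1 had 3 calls (5), as lipl-3 and lipl-4 were not tested. With arrays left out, calls ranged from 5 to 8 in the day 8 glp-1 response to ash-2 RNAi, 7 to 9 for genotype on day 8, 3 to 4 at L3, 3 to 4 for the day 8 interaction, 6 to 8 for genotype by age and 4 to 7 for RNAi by age in glp-1; the other counts stayed at 0 or 1. The day 8 glp-1 count of 5 arose without glp-1 EV 2 or 3 or any of the 3 glp-1 ash-2 RNAi arrays. A replicate block kept the lipase count of 0 in L3 WT (55 higher and 40 lower over all probe sets). It gave 6 calls in day 8 glp-1 under ash-2 RNAi (8), losing lipl-5 (adjusted p = 0.0512) and atgl-1 187658 (adjusted p = 0.0614). The block also gave 6 for RNAi by age in glp-1 (5), and left the other counts as they were. The lipl-1 fall was also lost with quantile scaling (−0.50, adjusted p = 0.0658). Median scaling moved the genotype calls over all probe sets at L3 from 7538 higher and 4983 lower to 10728 and 4493, those of ash-2 RNAi in L3 glp-1 from 113 and 67 to 89 and 123, those of genotype by age from 5530 up and 6355 down to 4849 and 8645, and those of RNAi by age in glp-1 from 942 and 1252 to 1463 and 1059. Fits of only the arrays compared called 98 higher and 70 lower in L3 WT (49 and 25), 16 and 9 in L3 glp-1 (113 and 67) and 868 and 1112 in day 8 glp-1 (1618 and 1721), where the lipase count was 6. Dim probe sets (lipl-3, lipl-4, atgl-1 187658) limit the smallest changes that can be read.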
